A study of Mus musculus with 43 samples.

Results

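The response of mouse tumoroids to 4 µM regorafenib was described across 10593 of the 52636 genes listed for the organoid libraries, those with at least 200 CP20M in at least 2 of the 6 libraries compared. CP20M is a gene's read count scaled to a library total of 20000000, so it is not divided by gene length and is used here to compare libraries and not genes. The 6 libraries are 6 of the 43 samples of a series on mouse colon organoids and colon fibroblasts, and were made from 3 tumoroid lines, F11, M3 and M14. Each line came from 1 mouse that was 2 months old, female for F11 and male for M3 and M14.

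All tumoroids, the controls included, carried the Vil-cre/ERT2/Apcflox/flox genotype, in which tamoxifen activates a Cre recombinase driven by the Villin promoter and Apc is deleted in the intestinal epithelium alone. The lines were grown in Matrigel, in a medium that held EGF, Noggin, R-spondin 1 and Wnt3a-conditioned medium, so that the Wnt pathway was fed from outside as well as released by the loss of Apc. They were cultured for 6 days with the vehicle (0.5% DMSO), with 4 µM regorafenib or with 8 µM regorafenib. The 3 libraries at 8 µM entered the fit for the estimate of the spread and for the comparison of doses, and colonoid lines with wild-type Apc (VilCreERT2/Apc+/+) served for the comparison of genotypes.

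Regorafenib is an oral inhibitor of several kinases, among them receptors for VEGF, PDGF and FGF, KIT and RET, and is given in late-line colorectal cancer. Apc belongs to the complex that marks β-catenin for destruction, and its loss keeps Wnt target genes on in the crypt epithelium, as in most colorectal tumours. Epithelial cells rest on a basement membrane of laminins, type IV collagen and perlecan that they hold through integrins, whereas fibronectin and vimentin are classed as mesenchymal products. A shift of epithelial cells towards such products is called epithelial-mesenchymal transition (EMT).

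Sequencing depth, as reads recovered from the scaled counts, was 15150050 to 22370531 per library with vehicle or 4 µM and 7549951 to 19308019 with 8 µM. Apc itself was counted at 4932, 4972 and 5211 CP20M in the vehicle libraries of F11, M3 and M14, and at 5487, 4375 and 4663 CP20M with 4 µM, a count over the whole gene that does not show the loss of exons. The 18 markers fixed for epithelial identity summed to between 177370 and 247446 CP20M with vehicle and between 217945 and 236194 CP20M with 4 µM, and none was at 0. The 15 markers of fibroblasts and smooth muscle summed to between 40 and 89 CP20M with vehicle and between 35 and 95 CP20M with 4 µM, with 4 to 11 of them at 0 in each library. The 12 markers of immune and endothelial cells summed to between 557 and 636 CP20M with vehicle and between 608 and 959 CP20M with 4 µM, with 6 to 9 at 0.

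One library stood apart before any comparison. In the vehicle library of F11 the 44 genes of a list on the cell cycle and DNA replication summed to 111191 CP20M, against 14290 CP20M in M3 and 14423 CP20M in M14. Several results below are therefore given with and without line F11, though not every one that rests on that library.

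At 4 µM, 1479 genes passed the test against vehicle, 804 higher and 675 lower. A gene was called at a false discovery rate (FDR, the Benjamini-Hochberg adjusted p of limma over 10593 genes) under 0.05 and a change of at least 1.5-fold in either direction, with the line as a block. The share called was 14.0% in either direction, 7.59% higher and 6.37% lower, and these shares are the background against which the gene lists below are read. The changes on the higher side were the larger ones: 87 genes rose and 25 fell by more than 2 on the log2 scale, and 33 rose and 4 fell by more than 3. Of the called genes 1478 moved the same way in each of the 3 lines, as did 5952 of all genes tested (56.2%). A test with the line as a block favours such genes, so this count follows in part from the calling. In 1265 of the called genes the vehicle and treated libraries did not overlap, which held for 34.7% of all genes tested. The median log2 fold change over all genes was −0.07. A gene that reached the minimum level in libraries of 1 group only entered the test through its higher values there. Its call is therefore not independent of the filter. Such genes numbered 160 through 4 µM, 118 of them called higher, and 248 through vehicle, 103 of them called lower.

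The split between directions followed the scaling. With TMM scaling, which moved the median to 0.003, 956 genes were higher and 462 lower, so that 67.4% of the calls were higher in place of 54.4%. Without line M14 only 62 genes were called and without line M3 374, whereas 1750 were called without F11.

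**Figure D1:**
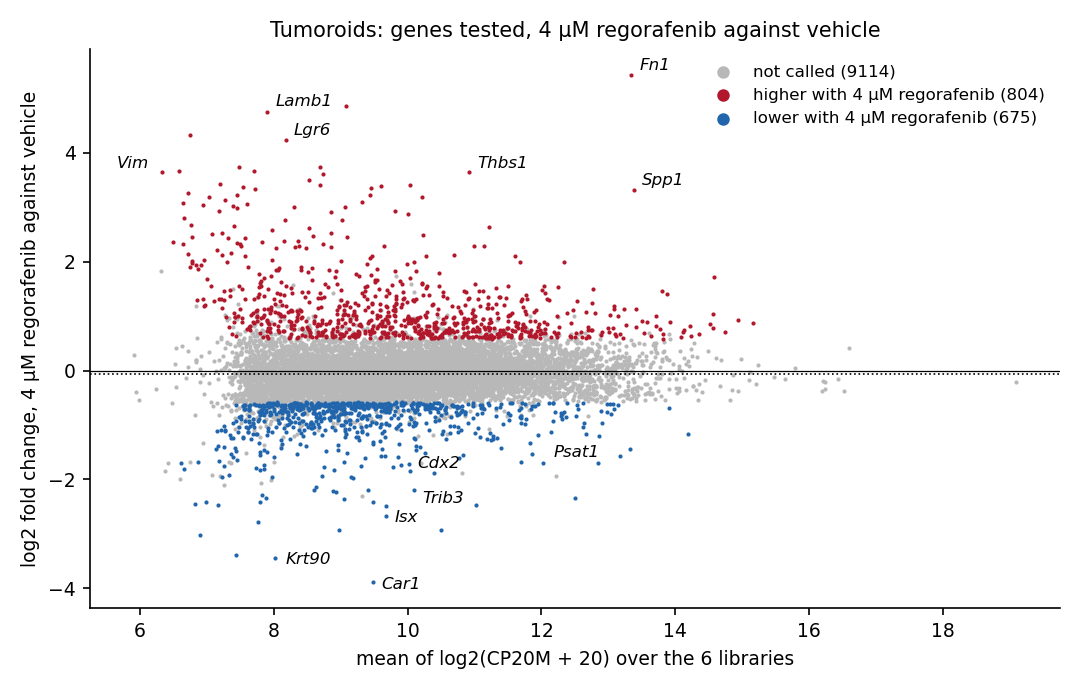
Log2 fold change of each of the 10593 genes tested (y axis) against its mean log2(CP20M + 20) over the 6 libraries (x axis), with the 804 genes called higher in red, the 675 called lower in blue and the others in grey. The dotted line is the median of all genes, −0.07. The largest rises, led by Fn1, reach further from 0 than the largest falls, led by Car1.

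Genes of the extracellular matrix were among the largest changes. Of the 15 tested chains of fibronectin, laminin and collagen, 11 rose and none fell, with a median log2 fold change of 1.05 against −0.07 over all genes. Fibronectin rose most, and the laminin chains Lama3 and Lamb3 and the basement membrane collagen (Col4a1, Col4a2) rose with it. A further 16 genes of the list lay below the minimum level, so the count covers the chains these cells transcribed. Lamb1 passed the minimum only through its 4 µM libraries, so its call is not independent of the filter.

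Fn1 (ENSMUSG00000026193, chr1:71585520-71653200 in GRCm38, minus strand) encodes fibronectin, the glycoprotein that integrins bind outside the cell. With vehicle it was counted at 935, 1430 and 2802 CP20M in F11, M3 and M14, and with 4 µM at 36033, 55721 and 157849 CP20M. The groups lie far apart in each line, and the log2 fold change was 5.44 ± 0.21 (SE, n = 3 lines, limma FDR = 0.000264). Apol7d overlaps Fn1 on the opposite strand and moved with it, from 45, 76 and 143 to 1573, 2380 and 6508 CP20M, passing the minimum only through its 4 µM libraries. Whether reads were counted by strand is not given in the sources used here, so the reads of this pair cannot be told apart.

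Lamb1, the β1 chain shared by several laminins, was nearly silent with vehicle at 10, 34 and 40 CP20M, and stood at 1101, 718 and 2278 CP20M with 4 µM (log2 fold change 4.75 ± 0.30, limma FDR = 0.000718). Lama3 and Lamb3, laminin chains of the epithelial basement membrane, started from higher counts. Lama3 went from 595, 886 and 1552 to 5281, 5532 and 7177 CP20M, a log2 fold change of 2.64 ± 0.18. Lamb3 was counted at 2827, 4428 and 5722 CP20M with vehicle and at 11501, 10861 and 12870 CP20M with 4 µM, a log2 fold change of 1.49 ± 0.17. Neither chain overlapped between the groups, and in both the lines were further apart with vehicle than with the drug, in relative terms. Col4a1 rose by 1.25, Col4a5 by 1.09, Col4a2 and Col18a1 by 1.05, Lamc1 by 0.78 and Agrn by 0.66 on the log2 scale. Lama5 (0.40) and Lamb2 (0.81) were among the 4 tested chains that did not pass.

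Genes that act on the matrix followed. Of 24 tested matricellular proteins and matrix enzymes, 9 rose and 1 fell, with a median of 0.64. Without F11 9 rose and 2 fell, without M3 7 rose and none fell, and without M14 3 rose and none fell. Thbs1, thrombospondin 1, a matricellular protein that can release TGFβ from its latent form, was counted at 407, 632 and 574 CP20M with vehicle and at 6662, 7004 and 6834 CP20M with 4 µM (3.64 ± 0.31, limma FDR = 0.00135). The 3 treated libraries were closer to each other than the 3 vehicle libraries, in relative terms, and no treated value came near a vehicle value. Spp1, osteopontin, rose from 1940, 1655 and 11662 to 23763, 27414 and 59214 CP20M, with M14 the highest line in both groups (3.33 ± 0.39). Plat, the tissue plasminogen activator, rose by 2.48, Bmp1, a proteinase that trims procollagens, by 2.00, Plod2, a collagen lysyl hydroxylase, by 1.74, and Timp2, a metalloproteinase inhibitor, by 1.07. Mmp14, a membrane-bound matrix metalloproteinase, went from 397, 518 and 398 to 1344, 1067 and 1416 CP20M, again without overlap. Loxl3, a lysyl oxidase, fell by 0.73. Plod2 passed the minimum only through its 4 µM libraries and Loxl3 only through its vehicle libraries.

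The receptors for these ligands moved the same way. Of 19 tested integrins and surface proteoglycans, 14 rose and none fell, with a median of 0.77. Itga5, which pairs with Itgb1 to bind fibronectin, was counted at 27, 100 and 118 CP20M with vehicle and at 253, 372 and 554 CP20M with 4 µM (2.10 ± 0.19, limma FDR = 0.00149). Itgav rose from 2102, 2800 and 2945 to 5073, 7510 and 8855 CP20M (1.42 ± 0.10), and its partners Itgb8 (1.56) and Itgb6 (0.76) rose as well. Itgb1, the common β chain, rose by 0.82, while Itga6 (0.11) and Itga3 (0.52), which bind laminins, did not pass. Sdc3, a syndecan, went from 19, 12 and 44 to 379, 225 and 437 CP20M, and Gpc1, a glypican that holds growth factors on heparan sulphate, from 1260, 1776 and 1906 to 2938, 3722 and 4404 CP20M. No vehicle library reached a treated one in either gene. Itga5 and Sdc3 passed the minimum only through their 4 µM libraries.

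The calls in both the chains and the receptors depended on the lines. Without M14, 3 of the 15 chains and 1 of the 19 receptors were called, and without M3 4 and 7, with medians that stayed between 1.00 and 1.25 for the chains and between 0.65 and 0.86 for the receptors whichever line was left out.

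**Figure D2:**
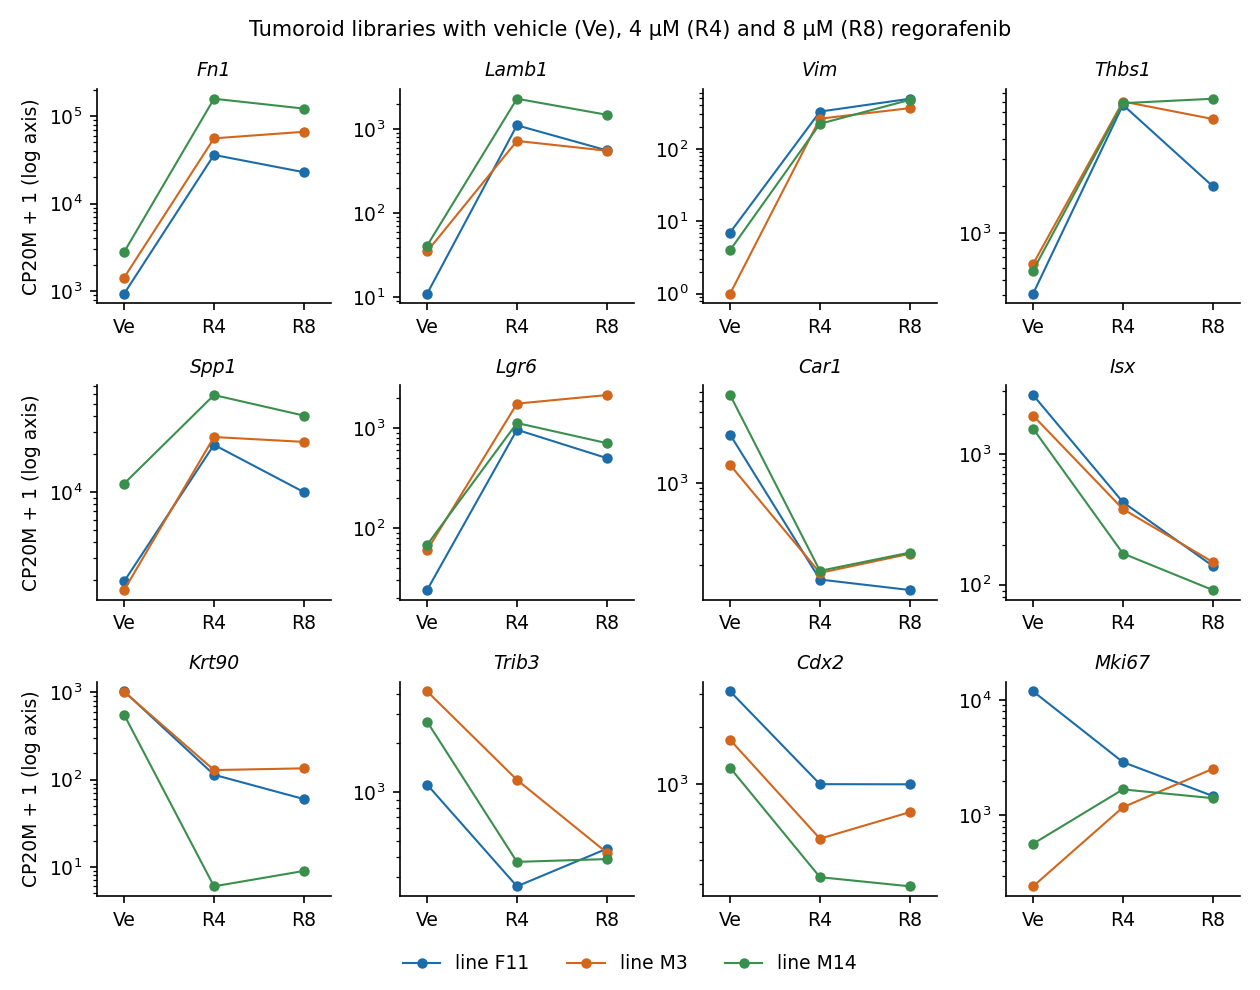
CP20M + 1 on a log axis for 12 genes in the 9 tumoroid libraries, with vehicle (Ve), 4 µM (R4) and 8 µM (R8) regorafenib on the x axis and 1 coloured line per tumoroid line. Fn1, Lamb1, Vim, Thbs1, Spp1 and Lgr6 are higher with 4 µM in each line, Car1, Isx, Krt90, Trib3 and Cdx2 are lower in each, and Mki67 goes down in F11 and up in M3 and M14.

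The list of EMT regulators and mesenchymal markers was mostly below the minimum level. Only 3 of its 17 genes were tested, Fn1, Itga5 and Vim, and Vim and Itga5 passed the minimum through the treated libraries alone. Vim, the intermediate filament vimentin, was counted at 6, 0 and 3 CP20M with vehicle, at 326, 260 and 221 CP20M with 4 µM and at 491, 364 and 474 CP20M with 8 µM. The groups did not overlap, and the fitted log2 fold change of 3.64 turned on the pseudocount, with 6.46 at a pseudocount of 1 and 1.83 at 100. The transcription factors that define EMT lay below the minimum in both groups and were not tested. Zeb1 was counted at 3, 1 and 2 CP20M with vehicle and at 12, 42 and 36 CP20M with 4 µM, Snai2 at 2, 4 and 8 and then 20, 12 and 18, and Twist1 at 3, 5 and 7 and then 33, 6 and 20. Cdh2, N-cadherin, was at 3, 1 and 5 and then 20, 8 and 38 CP20M, so that these 4 genes had the higher count with 4 µM in each line, at low levels. Snai1 was at 0, 1 and 0 and then 0, 5 and 0, and Zeb2 at 0 in each vehicle library and 0, 6 and 11 with 4 µM.

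Epcam, Cdh1 and Krt8 did not pass the test, while 3 transcription factors of the intestinal epithelium fell. Of 17 tested genes of epithelial identity, 1 rose and 3 fell, with a median of 0.11. Epcam (8402 to 11550 CP20M with vehicle and 8349 to 12848 CP20M with 4 µM, log2 fold change 0.11 ± 0.20), Cdh1, E-cadherin (0.27 ± 0.10), and Krt8 (0.22 ± 0.29) did not pass the test. Cdx2, the homeobox factor that specifies intestinal fate, was counted at 3080, 1712 and 1221 CP20M with vehicle and at 1001, 517 and 324 CP20M with 4 µM (−1.71 ± 0.15, limma FDR = 0.00145). The drop was nearly the same in each line, −1.60 in F11, −1.69 in M3 and −1.85 in M14. Elf3, an epithelial ETS factor, fell by 1.32, and Hnf4a, a nuclear receptor of enterocytes, by 1.25, although in M3 Hnf4a differed by only −0.32 and the call was lost without F11 (−0.83). Jup, plakoglobin, which links cadherins to the cytoskeleton, rose by 0.78.

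Genes of mature absorptive colonocytes fell. Of 10 that were tested, 7 fell and none rose, with a median of −1.43, and 16 more of the list lay below the minimum in these cultures. Car1, a carbonic anhydrase of the colon surface and the largest fall of all, was counted at 2577, 1422 and 5597 CP20M with vehicle and at 150, 171 and 178 CP20M with 4 µM (−3.89 ± 0.39, limma FDR = 0.00184). The vehicle libraries spread widely and the treated ones hardly at all. Isx, an intestine-specific homeobox factor that restrains vitamin A uptake, went from 2814, 1959 and 1557 to 426, 377 and 172 CP20M (−2.67 ± 0.18). Dmbt1 (−3.39), Ceacam1 (−1.70), Car2 (−1.16), the sodium channel subunit Scnn1a (−1.08) and the sulphate transporter Slc26a2 (−0.83) were the others. Car1 and Dmbt1 passed the minimum only through their vehicle libraries, and without M14 Isx alone of the 7 was called. As these are bulk libraries, fewer cells of a type and less RNA per cell cannot be told apart.

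Secretory genes were scarce in the tumoroids, with 26 of 28 below the minimum. The other two, Muc13, a transmembrane mucin, and Klf4, a factor of goblet cell maturation, both fell. Muc13 went from 6781, 4480 and 3767 to 498, 2230 and 570 CP20M, with M3 changing least (−2.47 ± 0.52), and Klf4 fell by 0.92. Other genes among the 12 largest falls include Krt90 (1029, 1017 and 554 to 113, 128 and 5 CP20M), Ppp1r1b, a phosphatase inhibitor (6564, 3789 and 2549 to 398, 568 and 577 CP20M), and Chl1, a cell adhesion molecule of neurons (283, 1738 and 336 to 37, 182 and 30 CP20M). Krt90 and Chl1 passed the minimum only through their vehicle libraries. The groups of Ppp1r1b, which passed through both, did not overlap.

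Part of the integrated stress response list fell. In this pathway several kinases phosphorylate eIF2α, and the transcription factor ATF4 is then translated and switches on amino acid synthesis and transport, often with a C/EBP partner. Of 33 tested genes 15 fell, none rose and 18 were not called, with a median of −0.58. The members that fell include ATF4 and partners (Atf4 −0.96, Atf5 −1.55, Cebpb −1.28, Cebpg −0.77), enzymes of serine and one-carbon metabolism (Psat1 −1.69, Aldh1l2 −2.41, Mthfd2 −1.60, Shmt2 −0.96), Asns and Cth for asparagine and cysteine (−1.13 and −1.77), the amino acid transporter Slc7a5 (−1.54), and the feedback genes Chac1 and Trib3.

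The promoters of 3 of these genes are shown because they hold the form in which ATF4 binds with a C/EBP partner, TGATGNAA or its reverse complement TTNCATCA, which is in capitals. They are RefSeq windows of GRCm38.p6, 250 bases before to 50 bases after the gene's start, on the gene's strand. The first is Chac1, chr2:119350992-119351291, plus strand, with the match at −193 from the start. Asns follows, chr6:7693160-7693459, minus strand, with the match at −23, and then Trib3, chr2:152344011-152344310, minus strand, with the match at 14.
Chac1: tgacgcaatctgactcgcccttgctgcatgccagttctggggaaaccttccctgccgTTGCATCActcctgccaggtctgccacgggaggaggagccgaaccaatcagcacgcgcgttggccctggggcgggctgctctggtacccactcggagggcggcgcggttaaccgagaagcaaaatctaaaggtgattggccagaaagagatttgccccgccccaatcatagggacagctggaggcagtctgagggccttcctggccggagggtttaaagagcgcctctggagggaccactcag
Asns: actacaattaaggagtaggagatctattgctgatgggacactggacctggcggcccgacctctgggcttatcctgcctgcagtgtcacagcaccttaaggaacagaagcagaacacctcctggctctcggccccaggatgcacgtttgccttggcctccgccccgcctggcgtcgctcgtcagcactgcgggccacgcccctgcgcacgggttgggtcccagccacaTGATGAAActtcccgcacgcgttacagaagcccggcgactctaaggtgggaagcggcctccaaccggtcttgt
Trib3: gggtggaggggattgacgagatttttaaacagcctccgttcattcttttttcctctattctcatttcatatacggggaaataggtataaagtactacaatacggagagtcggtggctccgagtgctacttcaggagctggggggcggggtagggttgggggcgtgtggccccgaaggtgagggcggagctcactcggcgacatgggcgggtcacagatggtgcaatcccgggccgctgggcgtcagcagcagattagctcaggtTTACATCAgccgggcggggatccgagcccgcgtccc

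Of the 15 genes that fell, 12 had a RefSeq promoter of this kind, and 5 of these 12 (Asns, Chac1, Herpud1, Pck2 and Trib3) held the motif on either strand. The share was 4.51% over all 27025 promoters, 2.53% over the 7857 of tested genes, 4.37% over the 503 of genes called lower and 3.14% over the 573 of genes called higher. This looser form was chosen after the windows had been read, so the count is a description. The stricter TGATGCA (reverse complement TGCATCA) was in 2 of the 12 and in 2.34% of the tested promoters.

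Chac1, which degrades glutathione, was counted at 851, 1748 and 1989 CP20M with vehicle and at 317, 446 and 185 CP20M with 4 µM (−2.20 ± 0.45, limma FDR = 0.0176). Asns, asparagine synthetase, went from 5398, 8196 and 6795 to 2220, 4416 and 2865 CP20M (−1.13 ± 0.18, limma FDR = 0.00879), and Trib3, a pseudokinase that restrains ATF4, from 1111, 4156 and 2706 to 263, 1188 and 372 CP20M (−2.20 ± 0.41). Chac1 and Asns did not overlap between the groups, whereas the treated M3 library of Trib3 stood above the vehicle library of F11. Psat1, an enzyme of serine synthesis, went from 7016, 8611 and 6940 to 2237, 3075 and 1768 CP20M, a log2 fold change of −1.69 ± 0.16 with no overlap. Ddit3, the factor CHOP, measured −1.04 and did not pass, and the chaperone Hspa5 measured 0.13 and did not pass. These calls depended on the lines that entered: 18 genes of the list fell and 1 rose without F11, 8 fell without M3 and none was called without M14, while the median stayed between −0.77 and −0.46.

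**Figure D3:**
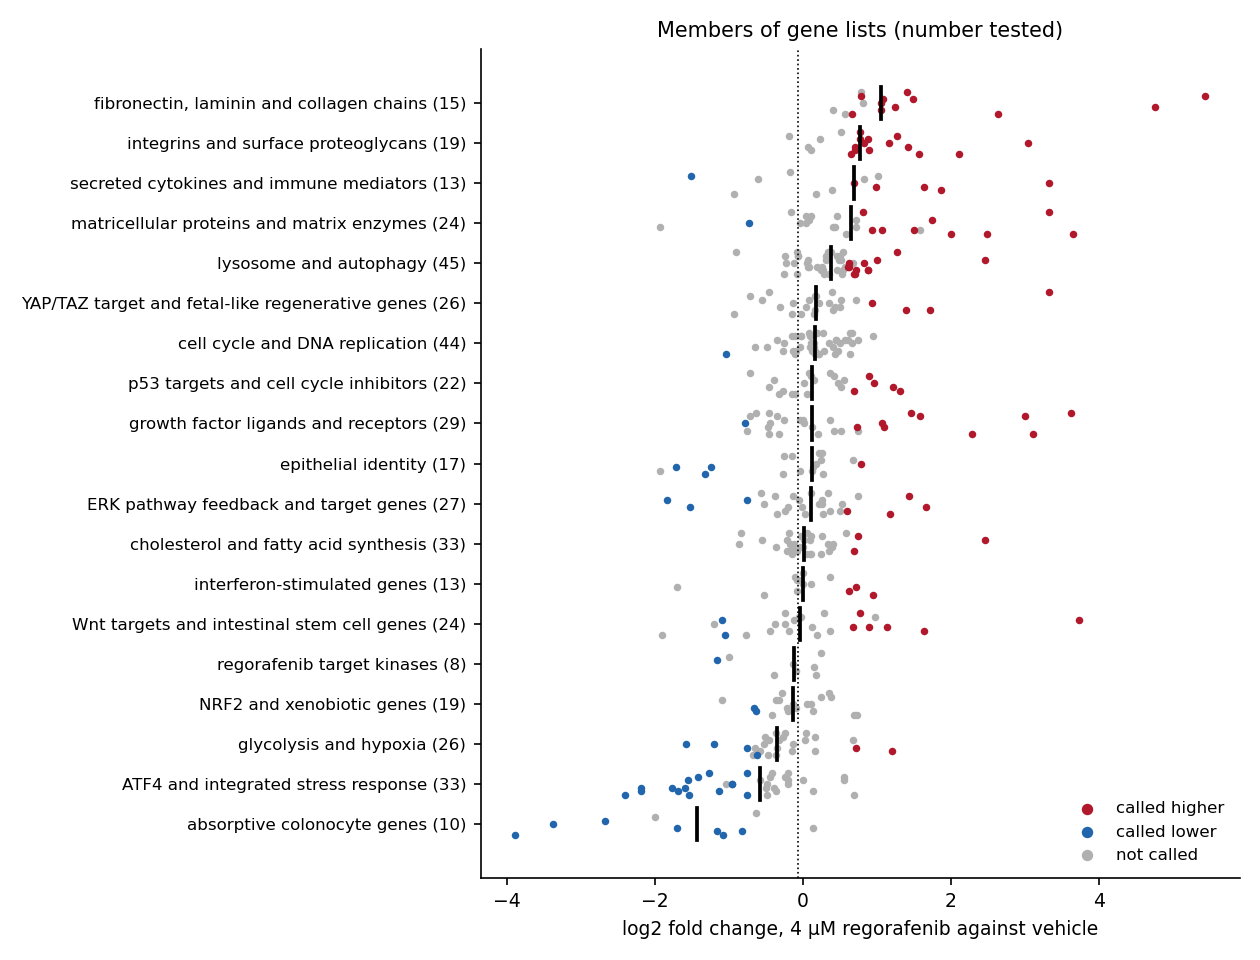
Log2 fold change of each tested member of 19 gene lists (x axis, number tested in brackets), ordered by the list's median, which is the black bar. Red points were called higher, blue points lower and grey points not called, and the dotted line is the median of all genes. Matrix chains and their receptors lie to the right with medians of 1.05 and 0.77, and ATF4 genes and colonocyte genes lie to the left with medians of −0.58 and −1.43.

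Several ligands and binding proteins of growth factors rose. Of 29 tested genes of this list 9 rose and 1 fell, with a median of 0.11. Without F11 9 rose and 6 fell, and without M14 1 rose and none fell. Igfbp7 and Igfbp3, which bind insulin-like growth factors, rose by 3.62 and 3.00, and Inhba, the activin A subunit, by 2.29. Fgf2, a ligand of FGF receptors, was counted at 140, 138 and 388 CP20M with vehicle and at 521, 2326 and 5137 CP20M with 4 µM (3.10 ± 0.43, limma FDR = 0.0054), with the smallest change in F11 and no overlap. Pdgfb, which signals to PDGF receptors on mesenchymal cells, went from 505, 745 and 782 to 1752, 2067 and 2317 CP20M (1.58 ± 0.10), and Pdgfc rose by 1.46. Tgfb1, a ligand of the TGFβ receptors, went from 301, 545 and 335 to 626, 1081 and 870 CP20M, without overlap, and Tgfb3 rose by 1.07. Among the receptors Egfr rose by 0.73 and Erbb2 fell by 0.78, and the EGFR ligands Areg (−0.47), Ereg (−0.72) and Btc (−0.76) did not pass. Igfbp7 and Pdgfc passed the minimum only through their 4 µM libraries.

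The kinases that regorafenib inhibits were mostly not transcribed at a level that could be tested. Of 20 in the list 8 were tested, and only Fgfr2 was called, at 1272, 650 and 594 CP20M with vehicle and 327, 415 and 292 CP20M with 4 µM (−1.17 ± 0.28, limma FDR = 0.0281). Its libraries did not overlap, and the F11 vehicle library was the highest. Without F11 1 gene of the list was called lower, and without M3 or without M14 none was called. In the annotation used here the span of Fgfr2 overlaps other genes, Dmbt1 on the opposite strand among them. Whether reads were counted by strand is not given in the sources, as for Fn1 above. Fgfr4 (−1.01), Braf (−0.10), Araf (0.17), Epha2 (−0.13), Csf1r (0.14) and Mapk11 (0.24) were among those not called.

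Genes that ERK signalling switches on moved in both directions. Of 27 tested, 4 rose and 3 fell, with a median of 0.11. Without F11 5 rose and 5 fell, without M3 1 rose and 1 fell, and without M14 none was called. The feedback inhibitors Spred3 (1.66), Spry4 (1.43) and Dusp4 (0.59) and the ETS factor Etv4 (1.17) rose, whereas the immediate early genes Egr1 (−1.84), Fos (−1.52) and Fosl2 (−0.76) fell. Spry4, a feedback inhibitor of receptor tyrosine kinase signalling, went from 123, 96 and 236 to 352, 316 and 638 CP20M without overlap. Egr1, an immediate early transcription factor, was counted at 1387, 1265 and 4354 CP20M with vehicle and at 444, 653 and 536 CP20M with 4 µM, again without overlap.

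Wnt targets and stem cell genes were divided too, with 6 of 24 higher, 2 lower and a median of −0.04. The median was −0.20 in F11, 0.11 in M3 and 0.41 in M14. Without F11 7 rose and 3 fell, without M3 2 rose and 1 fell, and without M14 1 rose and none fell. Dkk2, a secreted Wnt regulator, went from 18, 218 and 141 to 348, 3886 and 2359 CP20M (3.73 ± 0.18, limma FDR = 0.000366), a similar fold in lines that started at different levels. Tnfrsf19 (1.63), Mex3a (1.13), Cd44 (0.89), Ptk7 (0.77) and Slc12a2 (0.68) rose, and Plce1 (−1.10) and Tiam1 (−1.06) fell. Axin2, the usual readout of β-catenin activity, measured −0.19 and Lgr5, the receptor that marks crypt base stem cells, −0.77, and neither passed. Lgr5 was counted at 2720, 483 and 796 CP20M with vehicle and at 412, 435 and 1135 CP20M with 4 µM, so that F11 went down and M14 up. Lgr6, a relative of Lgr5 that also binds R-spondins, stood among the 12 largest rises, from 23, 59 and 67 to 964, 1762 and 1127 CP20M, and passed the minimum only through its 4 µM libraries.

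The list of YAP/TAZ targets and fetal-like regenerative genes had 4 of 26 higher and none lower, a share of higher calls of 15.4% against 7.59% over all genes, with a median of 0.17. Clu, clusterin, a marker of regenerating crypts, went from 11746, 9691 and 21503 to 41270, 35947 and 58850 CP20M (1.72 ± 0.15) with no overlap, and Amotl1 (1.39), Ctgf (0.93) and Spp1 were the others. Yap1 itself measured 0.09 ± 0.09 and did not pass. The median was 0.70 in F11, 0.20 in M3 and −0.07 in M14, and without F11 5 of the 26 genes rose and 4 fell, with a median of −0.02.

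Secreted cytokines and immune mediators had 5 of 13 higher and 1 lower, and 20 genes below the minimum. Csf1, the growth factor of macrophages, rose by 1.86, Lif, a cytokine of the interleukin 6 family, by 1.64, Cxcl1, which draws neutrophils, by 0.98 and Cxcl16 by 0.68. Lif went from 496, 422 and 664 to 1430, 1633 and 1936 CP20M, without overlap. Il18, an epithelial cytokine, fell by 1.51, from 826, 699 and 1291 to 380, 196 and 378 CP20M. Of 13 tested interferon-stimulated genes B2m (0.94), Ddx58 (0.71) and Bst2 (0.62) rose and none fell, with a median of 0.00. Ddx58 was not called without M3 (0.43), the line with its largest rise, and Bst2 was not called without F11 (0.43). None of the 13 interferon-stimulated genes was called without M14.

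The cell cycle genes went down in F11 and up in the other two lines. Only Tyms, thymidylate synthase, was called among 44 genes, from 1351, 625 and 651 to 508, 294 and 392 CP20M, and the median was 0.17. In F11, 42 of the 44 were lower with 4 µM than with vehicle, with a median log2 difference of −1.45. In M3, 39 were higher with a median of 0.82, and in M14, 43 were higher with a median of 0.95. Mki67, a marker of cycling cells, shows the pattern, with 11896, 242 and 567 CP20M with vehicle, 2896, 1177 and 1680 CP20M with 4 µM and 1473, 2533 and 1410 CP20M with 8 µM. The vehicle libraries thus spread far more than the treated ones. At 8 µM 43 of the 44 genes were below vehicle in F11 (median −1.68), 43 were above it in M3 (median 1.78) and 42 were above it in M14. Without F11 24 of the 44 genes rose, Tyms alone fell, and the median was 0.94.

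Whether the lines differ in this response was not tested, since each line has 1 library per condition, and the line, the sex of its mouse and its library cannot be told apart. Over all genes, 1108 (10.5%) were lower in F11 and higher in M3 and M14, and 49 of these by at least 2-fold in each line. The opposite pattern held for 978 genes, but for only 4 of them by 2-fold in each line, and patterns in which M3 or M14 stood alone held for at most 1 gene at that size.

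**Figure D4:**
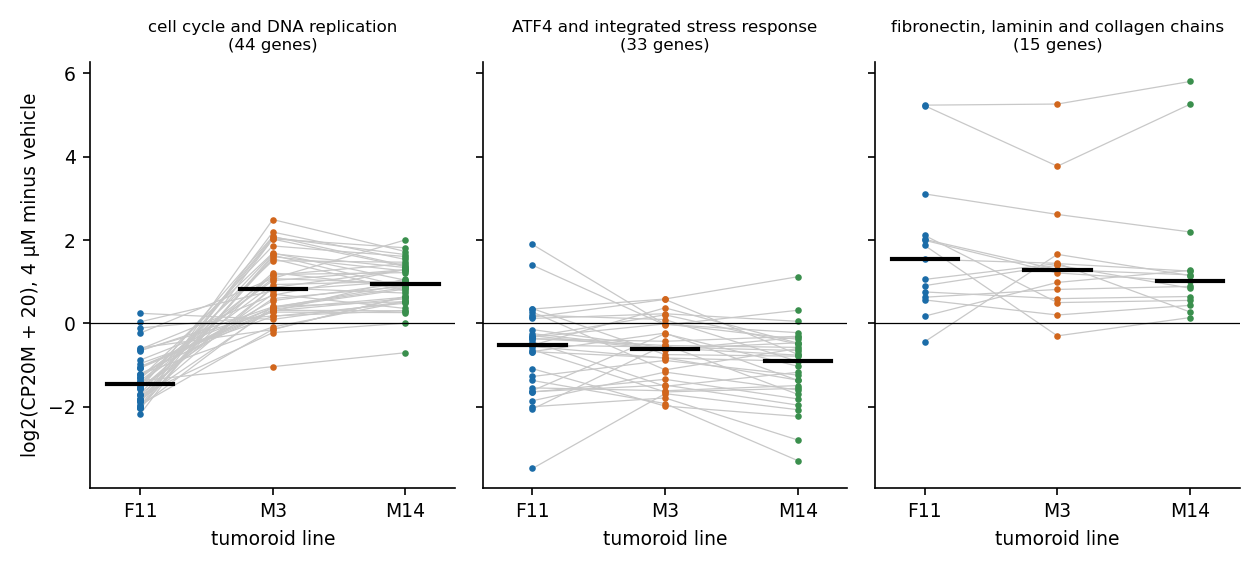
Log2(CP20M + 20) with 4 µM minus vehicle (y axis) in each line for the members of 3 lists, with grey lines joining a gene across lines and black bars at the list's median. Cell cycle genes lie below 0 in F11 and above 0 in M3 and M14, whereas the medians of the ATF4 genes are below 0 and those of the matrix chains above 0 in all 3 lines.

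The medians of the other lists can be set beside this. Matrix chains measured 1.54, 1.29 and 1.01 in F11, M3 and M14, ATF4 genes −0.52, −0.61 and −0.91, and colonocyte genes −1.33, −1.03 and −2.07. The sign of the median differed between lines in the ERK list (0.40, 0.17 and −0.14) and in the NRF2 list (0.20, −0.18 and −0.48). Cell cycle inhibitors and p53 targets had 5 of 22 higher and none lower, with medians of 0.67 in F11, −0.02 in M3 and −0.11 in M14. Without F11 4 rose and 1 fell, and without M3 or without M14 1 gene was called. Cdkn2a, which encodes p16 and ARF, went from 1140, 998 and 1497 to 3378, 2425 and 3301 CP20M (1.32 ± 0.11, limma FDR = 0.00129), higher in each line and without overlap. Cdkn2b, its neighbour that encodes p15, rose by 1.22, and Btg2 (0.96), the death receptor Tnfrsf10b (0.89) and the kinase Plk2 (0.69) rose as well.

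Of 45 tested genes of the lysosome and of autophagy 12 rose, none fell and 33 were not called, with a median of 0.38, and 17 rose with TMM scaling. The 12 include the proteases Ctsl (1.27), Ctsd (1.00), Ctsb (0.62) and Ctsa (0.61), the hydrolase Gla (0.62), the sphingolipid activator Psap (0.83), the membrane proteins Lamp1 and Lamp2 (both 0.71), the cholesterol carriers Npc2 (0.87) and Npc1 (0.69), and Gramd1a. Gramd1a moves cholesterol between membranes and is needed for autophagosomes to form, and went from 110, 227 and 370 to 741, 1094 and 2442 CP20M (2.46 ± 0.12, limma FDR = 0.000366) with no overlap. Ctsd, a lysosomal protease, went from 6996, 11686 and 10503 to 19354, 17796 and 20080 CP20M. Map1lc3b, Becn1, Atg5, Atg7 and Atg13 measured between −0.26 and 0.06 and were not called. Only Gramd1a was called without M14.

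The metabolic lists held few called genes, and whether their shares differ was not tested. Of 33 tested genes of cholesterol and fatty acid synthesis 3 rose, Gramd1a, Sc5d (0.74) and Fasn (0.69), a share of 9.09% against 7.59% over all genes, with a median of 0.01. Among 26 genes of glycolysis and hypoxia 23.1% were called, against 14.0% over all genes, and the median was −0.36. Pfkfb3 (1.20) and Hk1 (0.72) rose, and Car9 (−1.58), Txnip (−1.21), Pfkl (−0.77) and Gpi1 (−0.62) fell. None of this list was called without M14. Of 19 NRF2 and xenobiotic genes Gsr (−0.66) and Gpx2 (−0.64) fell, a share of 10.5% called, against 14.0% over all genes.

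Of the 22 genes that the study names for regorafenib in organoids 17 were tested, and 9 rose and 3 fell with a median of 0.98. They were chosen on these samples, so their direction is not independent evidence. A symbol printed there as Cdc7c or Cdc7 was read as Cdc7, which is an interpretation. Cdc7 was below the minimum, at 315, 22 and 45 CP20M with vehicle and at 85, 26 and 44 CP20M with 4 µM. Ascl2, a Wnt-driven stem cell factor, was counted at 513, 120 and 220 CP20M with vehicle and at 37, 62 and 52 CP20M with 4 µM, and at −1.91 ± 0.63 it did not pass (limma FDR = 0.0665). Tnfrsf11b, osteoprotegerin, at 1583, 4674 and 8661 CP20M with vehicle and 4420, 13026 and 9214 CP20M with 4 µM, did not pass, and Myc at −0.38 did not pass either. Cdca7, a separate gene with a similar symbol, measured −1.21 and did not pass.

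Raising the dose from 4 to 8 µM called 4 of 10593 genes (0.0378%) at the same thresholds, all of them lower at 8 µM. Egfr was counted at 1529, 1893 and 3146 CP20M with vehicle, at 2545, 3311 and 4973 CP20M with 4 µM and at 1187, 1473 and 1964 CP20M with 8 µM. It was thus highest at 4 µM and at 8 µM stood below vehicle in each line. Prss22, a secreted serine protease, was also highest at 4 µM, with 309, 659 and 518, then 1026, 1482 and 1659, then 382, 578 and 621 CP20M, and at 8 µM stood below vehicle in M3 alone. Arid5a, an RNA-binding protein that stabilises cytokine mRNAs, went down with each dose, from 1306, 1587 and 1921 to 873, 1187 and 1222 and to 435, 494 and 572 CP20M. Acsl3, an acyl-CoA ligase, was at 2043, 2763 and 2642 with vehicle, at 1780, 2054 and 2469 with 4 µM and at 901, 1155 and 1182 CP20M with 8 µM. An unadjusted p under 0.05 was reached by 1759 genes in this comparison. The F11 library at 8 µM was the shallowest of the 9, with 7549951 reads, and no gene was called when any 1 line was left out.

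No gene was called for a difference between tumoroids and colonoids in its response to 4 µM. With limma over 18 libraries 0 of 11320 genes were called, and 387 had an unadjusted p under 0.05. With edgeR 0 were called too, and 316 had an unadjusted p under 0.05. With 3 lines a genotype this does not show that the responses were equal. Fn1 measured 3.46 in colonoids, a difference of 1.98 ± 0.62 on the log2 scale (n = 3 lines a genotype, limma FDR = 0.807). Cdx2 measured −2.05 in colonoids (difference 0.34 ± 0.40) and Vim 4.03 (difference −0.38 ± 0.42), and Trib3, the ATF4 target above, measured −0.12 (difference −2.07 ± 0.84, limma FDR = 0.807). The lines differ between genotypes, and 1 colonoid library at 4 µM was shallow. This library, of line M41, held 512600 reads, against 16548027 in M40 and 12041993 in M1. The colonoid values above come from the fit that includes it. Without the M41 library at 4 µM 444 genes had an unadjusted p under 0.05 and again none was called.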

How the data were processed

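RNA of the organoid libraries was sequenced in bulk. According to the submitters' processing notes and the paper's methods, the authors trimmed reads with Trimmomatic 0.36, aligned them to GRCm38 with STAR 2.5.3a, counted them per Ensembl gene with HTSeq 0.9.1 and scaled each library to 20000000. The deposited signal values (CP20M) are rounded up, and whole reads were recovered from their step, with 99.27% to 100% of the values equal to a whole number of steps rounded up. At a step of 1 CP20M per read or less every whole number can be reached, so there this share does not check the recovered depth. Such were the M3 libraries with vehicle (step 0.995) and with 4 µM (step 0.894). Strand and kit are not given unambiguously in the sources used here. Values were analysed as log2(CP20M + 20), for genes that reached 200 CP20M in 2 or more of the 6 libraries, by limma 3.58.1 (trend) in R 4.3.3 over the 9 tumoroid libraries, with line as block. Lines are separate mice. Libraries were paired by the line in their labels. Deviations from group means correlated at 0.243 to 0.890 within lines (9 pairs). Between vehicle and 4 µM these were 0.493 in F11, 0.616 in M3 and 0.479 in M14. The average between lines was −0.278, which is tied to the values within lines because the deviations of a group sum to 0. edgeR 4.0.16 and DESeq2 1.42.0 on recovered reads were alternatives. Named genes were the 12 largest rises and falls (called, same direction in 3 lines, no Gm or Rik symbols), up to 4 called per list, defining markers, genes the study names, and up to 6 called between doses or genotypes; others in the text were chosen after their values were seen. The members and gene lists were chosen with earlier results of these data known. The fit was tested on simulated data. No copy of a library was found. A few genes are not reported here. The fibroblast table and the 5-FU contrast were not used here, except that 5-FU libraries entered 1 alternative.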

Additional observations from a re-analysis of the deposited data

Results flagged for a closer look

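The 4 genes that limma called between the doses are flagged, since their effect at 8 µM departed from that at 4 µM by a test of the difference itself (limma with the line as a block, 9 libraries, n = 3 lines a dose). The log2 difference, 8 µM minus 4 µM, was −1.19 for Egfr, −1.09 for Arid5a, −0.95 for Acsl3 and −1.37 for Prss22, with the level lower at 8 µM in 3 of 3 lines for each. The FDR was 0.0395 for Egfr and Arid5a and 0.0471 for Acsl3 and Prss22. None was called when any 1 line was left out.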

How the results depend on the processing

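The count of 1479 genes called at 4 µM (804 higher, 675 lower) became 818 (473, 345) without the replicate block, all 818 among the 1479, then 805 (507, 298) in the 6 libraries alone, 602 (400, 202) with all 18 organoid libraries and 27 (26, 1) at an FDR of 0.001. It ranged from 62 (56, 6) without M14 to 1750 (975, 775) without F11, with 374 without M3. With 12 tumoroid libraries it was 1560, with TMM scaling 1418, with edgeR 1517, with DESeq2 1713, without the filter 1523, and with pseudocounts of 1 and 100 it was 1540 and 1204. The 127 called members of the gene lists became 77 without the replicate block, 71 with 18 libraries and 9 at an FDR of 0.001, and ranged from 17 to 169 when 1 line was left out. Between doses the 4 calls became 0 without the replicate block, without the filter, with TMM scaling and at an FDR of 0.001, 197 (41 higher, 156 lower) with DESeq2, and 0 to 0 when 1 line was left out. The cause was not tested, except that a lower FDR threshold calls fewer genes by construction. No gene was called between genotypes under any alternative. Of 96 named genes, 30 lost their call without the replicate block, 66 without M14 and 32 without M3. Only values near 0 changed sign, Epcam without M3 (−0.062) and without M14 (−0.00045), against 0.40 without F11, and Krt8 without F11 (−0.16), against 0.47 without M3. Genes near 0 CP20M in vehicle have fold changes that follow the pseudocount, such as Piezo2, from 2.56 to 6.98. Depth was 7549951 to 22370531 reads per tumoroid library with vehicle or regorafenib, and its part in the number of calls was not tested.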

Other observations

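The families below were picked after their values had been seen, and are given as values. Among 13 tested keratins 7 fell and none rose: Krt90 (−3.44), Krt34 (−3.03), Krt36 (−2.49), Krt15 (−2.45), Krt4 (−2.34), Krt13 (−1.98) and Krt23 (−1.75). Krt4, a keratin of stratified epithelia, went from 10102, 19502 and 11266 CP20M in F11, M3 and M14 with vehicle to 6147, 3286 and 828 CP20M with 4 µM. Krt90, Krt34 and Krt15 passed the minimum only through their vehicle libraries. Of 6 carbonic anhydrases 5 fell, with Car12 (−1.53) and Car13 (−0.85) beside Car1, Car2 and Car9, and the mitochondrial Car5b, which passed only through 4 µM, rose by 1.32. Among 20 cytosolic aminoacyl-tRNA synthetases, Yars (−1.25), Wars (−1.17) and Mars (−0.60) fell and none rose.

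Of 12 tested genes of the axonal cytoskeleton, best known from neurons, 8 rose and none fell, and Nes, Kif1a and Nrep of these passed the minimum only through their 4 µM libraries. Dbn1, the actin-binding drebrin, went from 72, 45 and 200 to 876, 814 and 2494 CP20M (3.49 ± 0.15, limma FDR = 0.000264), and Kif1a (3.06), Nrep (2.57), Nes (2.32), Dpysl3 (2.29), Marcks (2.13), Basp1 (1.16) and Marcksl1 (1.06) rose too. Of 9 tubulins Tubb2b (3.01), Tuba1a (1.99) and Tubb2a (1.43) rose, and of 9 annexins Anxa6 (2.00) and Anxa5 (1.53) did.

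Both chains of the interleukin 18 receptor rose while the cytokine fell (Il18). Il18r1 went from 24, 178 and 202 to 279, 1212 and 724 CP20M (2.38 ± 0.26), and Il18rap from 53, 40 and 289 to 485, 850 and 959 CP20M (2.77 ± 0.40). Among 10 receptors of the TNF superfamily 4 rose, with Tnfrsf23 (2.10) and Tnfrsf22 (1.45) beside Tnfrsf19 and Tnfrsf10b. Among 16 circadian clock genes Ciart (−1.47), Per2 (−1.36), Nfil3 (−0.91) and Npas2 (−0.60) fell and Rora rose by 1.86. Ciart and Per2 passed the minimum only through vehicle and Rora only through 4 µM, and the hour of harvest is not given in the sources used here.

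By gene type, 9 of 13 tested small nucleolar RNAs fell (69.2%, against 6.23% of protein-coding genes), with a median of −0.94, and 3 of 5 small Cajal body RNAs fell. Such short RNAs lie inside introns of other genes, and their reads were not separated here from those of the host gene.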
